A study of Homo sapiens with 6 samples.

Results

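The integrated stress response core genes described here are ATF4, DDIT3, CEBPB, CHAC1, ATF3, TRIB3, ASNS, DDIT4, SESN2 and PPP1R15A. They were chosen by gene symbol, as the central transcription factor of the pathway and well-known genes downstream of it, with earlier results of these data known. All 10 symbols were found among the 30618 genes of the count table, and all 10 passed the filter on low counts that left 16749 genes for testing. The libraries came from ARPE-19, a human cell line derived from retinal pigment epithelium, kept in 50 mM glucose as a model of diabetic retinopathy. The NC group was transfected with a non-targeting control siRNA and the siEIF1 group with an siRNA against EIF1, with 3 libraries in each. Each group received 1 siRNA sequence, so loss of EIF1 and other effects of that sequence cannot be told apart. Both groups therefore carried the high glucose and a transfection, and neither a library in normal glucose, an osmotic control nor an untransfected library was analysed here. EIF1 is the initiation factor that holds the scanning ribosome back from poor start codons, and the comparison asks how the transcripts of the stress pathway stood when its mRNA was depleted.

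In the integrated stress response, any of several kinases phosphorylates the initiation factor eIF2, which slows translation of most mRNAs and allows more translation of a few, ATF4 foremost. ATF4 then acts with partner bZIP proteins such as CEBPB and DDIT3 on genes for amino acid supply, redox balance and cell fate, and PPP1R15A, a subunit of an eIF2 phosphatase, closes the loop. In the retinal pigment epithelium the pathway has been studied for its link to oxidative stress and to angiogenic signals. Transcript levels, which are what was measured here, do not show how much of an mRNA was translated or how much eIF2 was phosphorylated.

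After EIF1 depletion 8 of the 10 core genes had lower transcript levels, 1 had a higher level and 1 did not pass the test. DDIT3, the stress-induced factor also called CHOP, fell most, to 55.3% of its NC level, and CHAC1, which degrades glutathione, fell to 57.5%. SESN2, CEBPB, ATF3, TRIB3, ASNS and PPP1R15A fell to between 67.2% and 84.0% of NC. ATF4 itself was the 1 core gene that rose, by 16.2%. Among all tested genes 20.6% were called, 10.2% as higher and 10.4% as lower, at a Benjamini-Hochberg adjusted p under 0.05 in edgeR's quasi-likelihood test. The core genes had a median log2 fold change of -0.45, against 0.00 for all tested genes.

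The DNA upstream of the core genes is shown first, because ATF4 and the C/EBP proteins recognise a known composite element there. The element, called CARE, was searched as TGATGNAA on both strands in the 1000 bases before the start of the canonical transcript of each gene. It was present in 6 of the 10 core genes and in 10.2% of 16704 tested genes with such a window. The core genes other than ATF4 were chosen as genes downstream of it. A larger share among them, here or in the promoters below, therefore adds no support. The matches nearest to the starts are printed from GRCh38 in the direction of the gene, with the element in capitals, and TTGCATCA and TTTCATCA are the element read on the other strand.
ASNS, 68 bases before the start, chr7:97872458-97872487, reverse strand: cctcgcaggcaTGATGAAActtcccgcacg
ATF3, 21 bases before the start, chr1:212608729-212608758, forward strand: tataaaaggggTGATGCAAcgctctccaag
ATF3, 203 bases before the start, chr1:212608547-212608576, forward strand: cctccccgaacTTGCATCAccagtgccccc
CHAC1, 209 bases before the start, chr15:40953251-40953280, forward strand: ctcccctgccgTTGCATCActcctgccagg
SESN2, 296 bases before the start, chr1:28259211-28259240, forward strand: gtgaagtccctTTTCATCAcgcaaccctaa
DDIT3, 306 bases before the start, chr12:57520802-57520831, reverse strand: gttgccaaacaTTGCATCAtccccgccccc

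Of these stretches, those of CHAC1 and ASNS and the one nearest to the start of ATF3 also lie in an exon of another transcript of the same gene. ASNS held another CARE match 886 bases before its start, and DDIT4 held 1 match 946 bases before its start. In the shorter promoters of RefSeq (GRCh38.p14, 250 bases before to 50 after each start), all 10 core genes had an entry and 3 of them, ATF3, ASNS and CHAC1, held the element, against 3.62% of 35116 promoters. The matches of ASNS and CHAC1 there were the printed ones, but that of ATF3 differed in sequence from both printed above. The CRE motif, TGACGTCA, is bound by factors of the CREB and ATF family and shares no overlapping match with CARE in these windows. PPP1R15A was the 1 core gene with it.
PPP1R15A, 58 bases before the start, chr19:48872352-48872381, forward strand: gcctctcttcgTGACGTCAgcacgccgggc
This stretch too lies in an exon of another PPP1R15A transcript, and 3.64% of the 16704 windows held a CRE. Over all tested genes, the 1706 with CARE had a median log2 fold change of -0.02 and the 14998 without it had 0.01. Core genes with a match included DDIT3 and CHAC1, which fell most, and DDIT4, which did not pass the test.

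The knockdown was checked on EIF1 itself. Its FPKM, the number of fragments per length of transcript, scaled to the mapped fragments of the library, was 294, 281 and 281 in the NC libraries and 24.3, 22.7 and 23.5 in the siEIF1 libraries. All siEIF1 libraries were therefore far below all NC libraries, with 8.22% of the NC mean left and the lowest log2 fold change of all tested genes (-3.58, SE 0.05, edgeR adjusted p = 1.08e-13). The libraries held 26499929 to 31431479 counts, mitochondrial transcripts took 9.23% to 9.98% of them, and TMM scaling factors lay between 0.981 and 1.015. The libraries of each group were prepared as independent biological replicates, in parallel and in a single run, so the labels give no batch to set against the groups. MALAT1, a nuclear non-coding RNA, stood out with 8714 counts in siEIF1 replicate 1 against 46289 and 57810 in replicates 2 and 3, and its relation to the core genes was not tested. Of 12 markers of pigment epithelium or epithelium fixed as a list, 10 were in the count table and 9 were tested. RPE65 and TTR, both markers of pigment epithelium, were absent from the table. The epithelial keratins KRT18 and KRT8 had 327 and 113.0 FPKM in NC. The transcription factors OTX2 and MITF had 17.8 and 5.84 FPKM. Of the markers of mature pigment epithelium, BEST1 had 66.0 FPKM, but it shares bases on the opposite strand with the ferritin gene FTH1, so its reads are uncertain. SERPINF1 had 1.70 FPKM, and PMEL, RLBP1, LRAT and TYRP1 were near 0, with 0.27, 0.24, 0.12 and 0.06 FPKM. The summed counts of the list were 79250 to 87990 in NC and 89130 to 105814 in siEIF1, with KRT18, KRT8 and RLBP1 called as higher. Most of these counts came from KRT18, KRT8 and BEST1. Of 6 markers of blood, endothelial and photoreceptor cells, 1 was tested, CD68, and the summed counts of the list were 66 to 72 in NC and 73 to 81 in siEIF1. The part of these differences in the results was not tested, and in bulk RNA a change in the number of cells of one kind cannot be told apart from a change in RNA per cell. The p-values below measure the spread between libraries of 1 cell line.

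ATF4, on chromosome 22 from 39519695 to 39522683, encodes the transcription factor at the centre of the pathway. Its FPKM was 238, 235 and 238 in the NC libraries and 279, 281 and 267 in the siEIF1 libraries. The lowest siEIF1 library thus stood above the highest NC library. The means were 237.0 ± 1.87 (SD, n = 3) and 275.4 ± 7.57 (SD, n = 3), and the log2 fold change was 0.24 (SE 0.05, 95% interval 0.13 to 0.35, edgeR adjusted p = 0.00513). ATF4 was already among the abundant transcripts in the control cells, at rank 117 or 118 of all genes by FPKM, and it held ranks 103 to 106 in the siEIF1 libraries. With 20236 to 27948 counts in a library it was also the most deeply counted core gene. Of the core genes it had the smallest spread between NC libraries, a coefficient of variation of 0.79%. Its rise was smaller than the change of every core gene that fell except PPP1R15A, whose log2 change of -0.23 was of like size. In limma on log2(FPKM + 0.1), where fewer genes were called, the adjusted p of ATF4 was 0.0518.

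**Figure D1:**
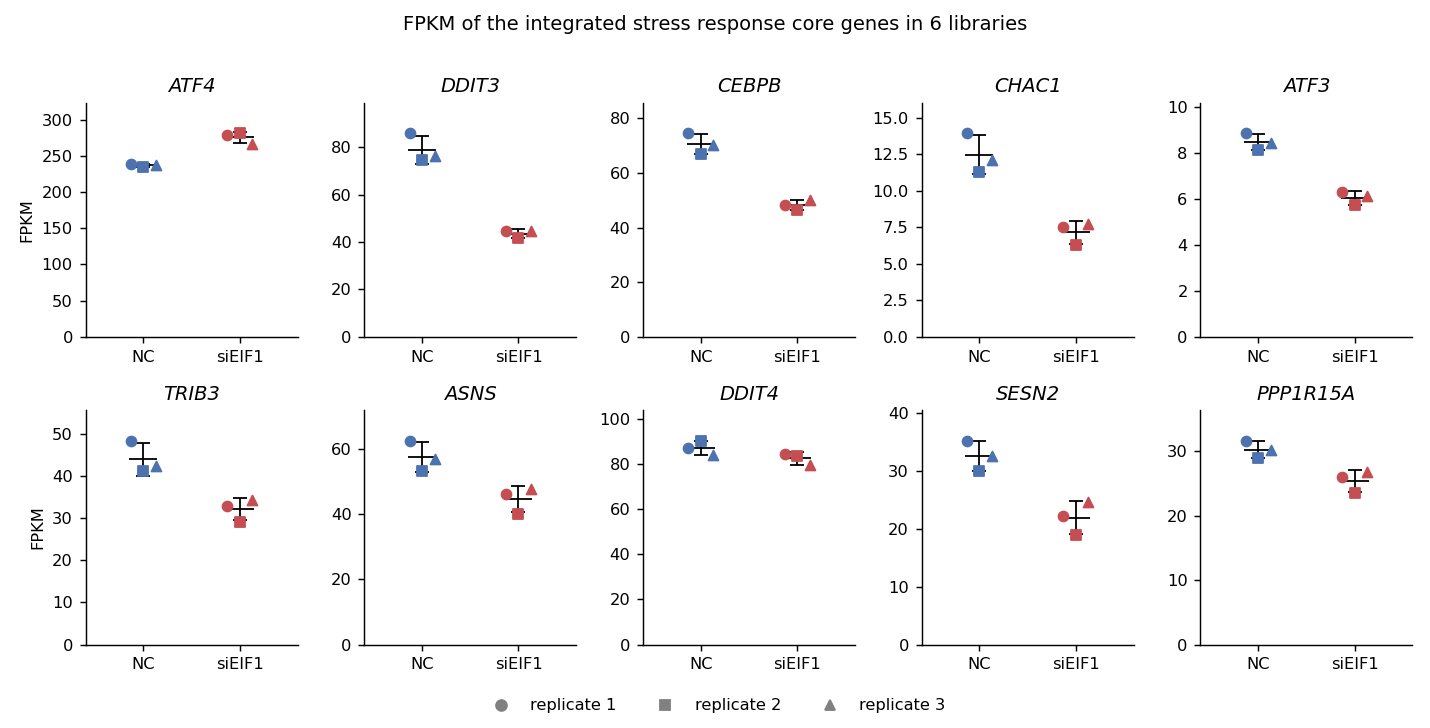
FPKM of each core gene (vertical axes, from 0, 1 panel per gene) in the 3 NC libraries (blue) and the 3 siEIF1 libraries (red), with marker shape for the replicate number, a line for the mean and bars of 1 SD. ATF4 is the 1 panel where all siEIF1 libraries lie above the NC libraries, DDIT4 is the 1 panel where the groups overlap, and in the other 8 all siEIF1 libraries lie below.

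The other transcription factors of the group all fell. DDIT3, on chromosome 12 from 57516588 to 57521737, is a bZIP factor induced by ATF4 and linked to cell death under lasting stress. It had 85.8, 74.6 and 76.1 FPKM in the NC libraries and 44.5, 41.5 and 44.7 in the siEIF1 libraries. The highest siEIF1 library, at 44.7 FPKM, lay well below the lowest NC library, at 74.6 FPKM. The log2 fold change was -0.84 (SE 0.06, 95% interval -0.96 to -0.71, edgeR adjusted p = 8.97e-07), and by p-value DDIT3 was rank 40 of the 16749 genes. In log2 fold change, 2.04% of the tested genes lay lower. An unnamed protein-coding gene model on the same strand (ENSG00000285133) shares 2769 bases with DDIT3, and it is not among the genes counted. MIR616, also on this strand, shares 97 bases and had 5.5 counts on average. Reads in the shared exons of a same-strand gene cannot be told apart from those of DDIT3 by strand. On the opposite strand, MARS1 and MBD6 share 982 and 1028 bases with it. The strand setting of the counts is not given in the sources used here, so reads in these stretches are uncertain too. MARS1, a tRNA synthetase gene with 7598 counts on average, had a log2 fold change of -0.26 (edgeR adjusted p = 0.00589), and MBD6 had 0.14 (edgeR adjusted p = 0.106). Both differences were smaller than that of DDIT3. MARS1 is also among the tRNA charging targets counted as lower below, so its call there carries the same uncertainty.

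CEBPB, a single-exon gene on chromosome 20 from 50190830 to 50192668, encodes a C/EBP factor that pairs with ATF4. It had 74.5, 67.2 and 70.3 FPKM in NC and 48.2, 46.6 and 50.2 FPKM in siEIF1. The groups were separated by a gap wider than the range inside either of them. The log2 fold change was -0.53 (SE 0.05, edgeR adjusted p = 9.55e-06). Its antisense partner CEBPB-AS1, which overlaps it by 669 bases, had 68.0 counts on average, far fewer than the 3847 of CEBPB. ATF3, on chromosome 1 from 212565334 to 212620777, is an early stress-induced factor that often represses transcription. It was the least abundant core gene by FPKM, with 8.86, 8.15 and 8.43 in NC and 6.29, 5.73 and 6.12 in siEIF1. The 3 siEIF1 values again all lay below the NC values, and the log2 fold change was -0.47 (SE 0.06, edgeR adjusted p = 1.11e-04).

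CHAC1, on chromosome 15 from 40952962 to 40956512, breaks down glutathione and is a sensitive readout of ATF4 activity. It had 13.9, 11.3 and 12.1 FPKM in NC and 7.49, 6.28 and 7.72 FPKM in siEIF1. Its libraries spread more than those of most core genes, with coefficients of variation of 10.7% and 10.8%, yet the groups did not meet. The log2 fold change of -0.78 (SE 0.09, 95% interval -0.97 to -0.59, edgeR adjusted p = 4.42e-05) was close to that of DDIT3, and their intervals overlap. With 474 to 928 counts in a library it was the core gene with the fewest reads.

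SESN2, on chromosome 1 from 28259518 to 28282491, encodes a sestrin that restrains mTORC1 when leucine is short. It had 35.2, 30.1 and 32.7 FPKM in NC and 22.2, 19.0 and 24.7 FPKM in siEIF1. The siEIF1 libraries differed among themselves more than for any other core gene (coefficient of variation 13.2%), and the highest of them was still below the lowest NC library. The log2 fold change was -0.56 (SE 0.075, edgeR adjusted p = 1.94e-04). TRIB3, on chromosome 20 from 362835 to 397559, encodes a pseudokinase that binds ATF4 and damps it. It had 48.3, 41.1 and 42.3 FPKM in NC and 32.9, 29.1 and 34.4 FPKM in siEIF1, with a log2 fold change of -0.43 (SE 0.07, edgeR adjusted p = 4.95e-04). The highest NC value of TRIB3 came from replicate 1, which stood apart from the close pair of replicates 2 and 3.

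ASNS, on chromosome 7 from 97851677 to 97872542, makes asparagine and is a textbook gene of the amino acid response. It had 62.5, 53.2 and 57.0 FPKM in NC and 46.1, 40.2 and 47.9 FPKM in siEIF1. The groups did not overlap, but the gap between them was smaller than the range within NC. The log2 fold change was -0.35 (SE 0.07, edgeR adjusted p = 0.00229). An unnamed long non-coding RNA (ENSG00000284707) shares 20855 bases with ASNS on the same strand, nearly the whole gene, and its 170.0 counts on average are small beside the 8828 of ASNS. PPP1R15A, on chromosome 19 from 48872212 to 48876059 and also called GADD34, brings the phosphatase PP1 to eIF2. It had 31.6, 29.1 and 30.2 FPKM in NC and 26.0, 23.5 and 26.8 FPKM in siEIF1, which is the smallest of the 8 decreases. Its log2 fold change was -0.23 (SE 0.05, edgeR adjusted p = 0.0066). In limma on log2(FPKM + 0.1) the adjusted p values of ASNS and PPP1R15A were 0.0611 and 0.0769.

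DDIT4, on chromosome 10 from 72273919 to 72276036, encodes an mTORC1 inhibitor also known as REDD1 that hypoxia and glucocorticoids switch on besides ATF4. It had 87.3, 90.2 and 84.1 FPKM in NC and 84.5, 83.6 and 79.4 FPKM in siEIF1. Here the groups overlapped, because siEIF1 replicate 1 lay above NC replicate 3. The log2 fold change was -0.06 (SE 0.05, edgeR adjusted p = 0.492), and its 95% interval of -0.175 to 0.056 did not reach the log2 fold change of any of the 8 genes that fell.

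**Figure D2:**
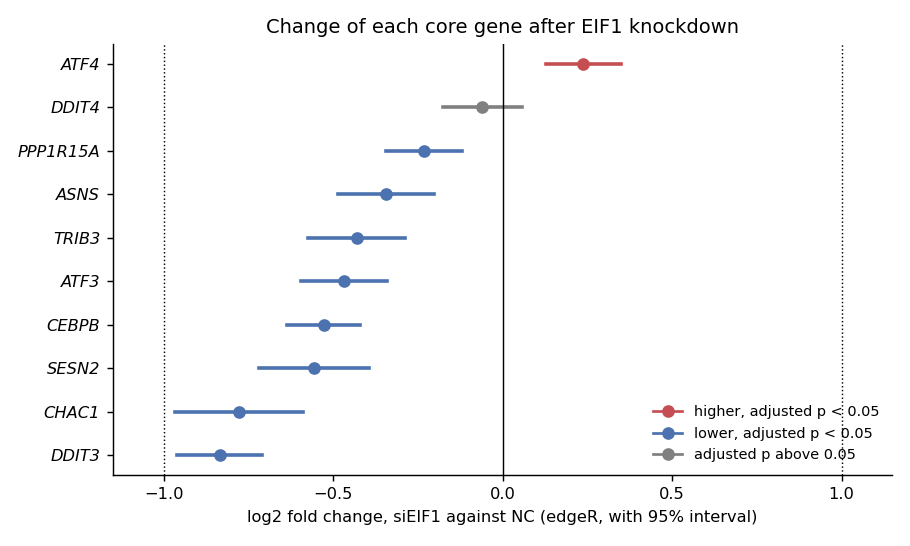
Log2 fold change of each core gene, siEIF1 against NC, from edgeR (horizontal axis), as points with bars for the 95% interval, coloured by direction and by whether the adjusted p was under 0.05. ATF4 is alone to the right of 0 with 0.24, the interval of DDIT4 spans 0, and no point passes the dotted lines of a 2-fold change.

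No core gene changed 2-fold. The count of core genes past a fold change of 2 or below 0.5 with an adjusted p under 0.05 was 0 in edgeR, where 1.71% of all tested genes were past these limits. It was also 0 in DESeq2 and 0 at an unadjusted p under 0.05 with either tool. The CPM of the groups did not overlap for 9 core genes, 8 in the lower and 1 in the higher direction. Among all tested genes it did not overlap for 37.1%, with 18.9% in the lower and 18.2% in the higher direction. For these 9 genes the exact two-sided permutation test on FPKM gave p = 0.1, the smallest value that 3 against 3 libraries allow, and for DDIT4 it gave 0.2.

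The order of the core genes by FPKM changed between the groups. In NC the order was ATF4, DDIT4, DDIT3, CEBPB, ASNS, TRIB3, SESN2, PPP1R15A, CHAC1 and ATF3. The libraries of DDIT4 and DDIT3 overlapped in range, as did those of SESN2 and PPP1R15A, and the other neighbours did not. In siEIF1, DDIT3 moved from the third to the fifth place, below CEBPB and ASNS, and PPP1R15A moved above SESN2. The libraries of CEBPB and ASNS, of ASNS and DDIT3, of PPP1R15A and SESN2, and of CHAC1 and ATF3 then overlapped, so these neighbours did not differ beyond their spread. ATF4 was first in both groups.

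The replicates of a group tended to move together across the core genes. NC replicate 1 was the highest NC library for 9 of the 10, and siEIF1 replicate 2 was the lowest siEIF1 library for 8 of the 10. DDIT4 was the exception in NC and ATF4 and DDIT4 were the exceptions in siEIF1. The share of all tested genes with this order was not computed, so a tendency of whole libraries cannot be told apart from one of the core genes. Without NC replicate 1 the log2 fold change of DDIT3 was -0.77, that of CHAC1 was -0.69, that of TRIB3 was -0.35 and that of ASNS was -0.28. The same number of core genes, 1 higher and 8 lower, was called with any 1 of the 6 libraries left out. By the Euclidean distance between centred log2 CPM profiles over the 6 libraries, the closest pairs of core genes were CEBPB with ATF3 (0.107) and TRIB3 with ASNS (0.115).

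Because ATF4 rose while genes downstream of it fell, each was also set against ATF4 in the same library. As a share of the FPKM of ATF4, DDIT3 stood at 36.02%, 31.75% and 32.00% in NC and at 15.96%, 14.79% and 16.76% in siEIF1. CHAC1 stood at 5.84%, 4.82% and 5.10% in NC and at 2.69%, 2.24% and 2.89% in siEIF1. For both genes the groups stood apart, with all siEIF1 shares under the lowest NC share, and the ratio of CPM was at 47.6% and 49.5% of its NC value. On the log2 CPM scale the ratio to ATF4 differed by -1.07 for DDIT3, -1.01 for CHAC1, -0.80 for SESN2, -0.76 for CEBPB, -0.70 for ATF3, -0.67 for TRIB3, -0.58 for ASNS and -0.47 for PPP1R15A. DDIT4 stood at 36.6%, 38.4% and 35.4% of ATF4 in NC and at 30.3%, 29.8% and 29.8% in siEIF1, a log2 difference of -0.30. The ratio did not overlap between the groups for any of the 9 genes, DDIT4 included. For the 8 that fell this followed from the separation of their own levels and of those of ATF4, so it adds no support. DDIT4, whose own libraries overlapped, separated only when set against ATF4. Most of its difference was the rise of ATF4 (log2 fold change 0.24, beside -0.06 for DDIT4 itself). Its separation therefore adds no support about DDIT4 either. The exact two-sided permutation test gave its smallest possible p of 0.1 each time. The share of all tested genes that would separate from ATF4 in this way was not computed. All 9 ratios share the same ATF4 values, so they are not independent of each other, and the rise of ATF4 adds to each.

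**Figure D3:**
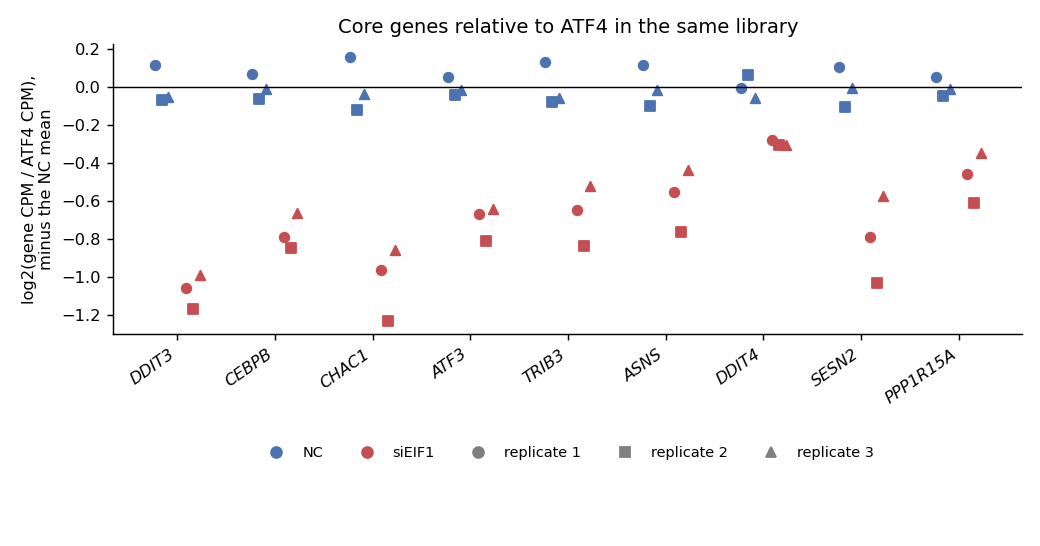
Log2 ratio of the CPM of each core gene to that of ATF4 in the same library, minus the mean of the NC libraries (vertical axis), for the 9 core genes other than ATF4, with colour for the group and shape for the replicate number. All siEIF1 points lie below all NC points, from -0.30 on average for DDIT4 to -1.07 for DDIT3.

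Of the 12 closest family relatives of the core genes, all tested, 3 fell and 0 rose in edgeR, with a median log2 fold change of -0.18. Among all tested genes 10.4% were called lower and 10.2% higher. CEBPG, a partner of ATF4 from the C/EBP family, had a log2 fold change of -0.32 (edgeR adjusted p = 0.00128). DDIT4L, the relative of DDIT4, had -0.34 (edgeR adjusted p = 0.0198), although DDIT4 itself did not pass the test. The call of DDIT4L was lost in limma on log2(FPKM + 0.1) and without NC replicate 1 or siEIF1 replicate 2 (adjusted p 0.0684 to 0.0906). PPP1R15B, the constitutive counterpart of PPP1R15A, had -0.36 (edgeR adjusted p = 9.84e-04). ATF5 had a log2 fold change of -0.04, JDP2 0.02, TRIB1 -0.22, TRIB2 -0.01, SESN1 0.13 and CEBPD -0.13, with edgeR adjusted p values from 0.0674 for TRIB1 to 0.981 for TRIB2. CEBPA (-0.68), CHAC2 (-0.37) and SESN3 (0.36) did not pass either, and with 41.7, 80.8 and 61.8 counts on average their standard errors of 0.26, 0.19 and 0.22 were wide.

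Upstream of ATF4, the eIF2 kinases and their regulators showed no common direction. Of 10 genes 1 was higher and 2 were lower (beside 10.2% higher and 10.4% lower among all tested genes), with a median log2 fold change of -0.01. EIF2AK3, the kinase PERK that senses stress in the endoplasmic reticulum, had a log2 fold change of 0.28 (edgeR adjusted p = 0.0275) at 0.62 FPKM in NC. EIF2AK2, the kinase PKR that binds double-stranded RNA, had -0.20 (edgeR adjusted p = 0.0217). The other lower gene was PPP1R15B, given above among the relatives and counted again here, and its call held in all 14 other settings. The call of EIF2AK3 was lost in 6 of 14 other settings, both limma fits and without NC replicate 1 or 3 or siEIF1 replicate 1 or 2, with adjusted p values of 0.0592 to 0.149. That of EIF2AK2 was lost in 5, both limma fits and without NC replicate 1 or 3 or siEIF1 replicate 2, with 0.0663 to 0.119. EIF2AK4, the amino acid sensor GCN2, had 0.11 (edgeR adjusted p = 0.173), and EIF2AK1, the heme-regulated kinase HRI, had -0.05 (edgeR adjusted p = 0.495). Of the 8 subunits of eIF2 and of its exchange factor eIF2B, 0 were higher and 2 were lower. These were EIF2S1, the subunit that carries the phosphorylated serine (log2 fold change -0.27, edgeR adjusted p = 0.00221), and EIF2B3 (-0.25, edgeR adjusted p = 0.0131), which did not pass in limma on log2(FPKM + 0.1) or without NC replicate 3 or siEIF1 replicate 2 (adjusted p 0.0578 to 0.0644). EIF2S3 had 0.10 (edgeR adjusted p = 0.175). Of 12 other bZIP factors that can pair with the core factors 11 were tested, and 4 were lower and 0 higher. JUN (-0.37, edgeR adjusted p = 7.86e-05) and FOSL1 (-0.31, edgeR adjusted p = 0.00786), both of the AP-1 family, were among the 4, with CEBPG as given and JUNB (-0.29, edgeR adjusted p = 0.0292). The call of JUNB was lost in both limma fits and without NC replicate 1 or 3 or siEIF1 replicate 1 or 2 (adjusted p 0.0705 to 0.156).

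Downstream, 54 further genes known as targets of ATF4 or DDIT3 were taken as 4 lists, of which 52 genes were tested. Of these 30 fell and 6 rose, with a median log2 fold change of -0.25, beside 10.4% lower and 10.2% higher among all tested genes. Without NC replicate 2 or without siEIF1 replicate 2, 3 rose, and limma on log2(FPKM + 0.1) called 19 lower and 2 higher. Of 9 amino acid transporters 6 fell and 0 rose, the list with the lowest median (-0.33). They included SLC7A11, which brings in cystine for glutathione (log2 fold change -0.45, edgeR adjusted p = 5.49e-04), and SLC7A5 and SLC3A2, the 2 chains of the leucine transporter (-0.35 and -0.33, edgeR adjusted p = 7.82e-04 and 2.15e-04). Of 11 genes of amino acid and one-carbon synthesis 6 fell and 1 rose, the proline-making ALDH18A1 (0.19, edgeR adjusted p = 0.0179). ALDH18A1 did not pass in limma on log2(FPKM + 0.1) or without NC replicate 2 or 3 or siEIF1 replicate 2 (adjusted p 0.083 to 0.115). The decreases included the aminotransferase GOT1 (-0.62, edgeR adjusted p = 1.29e-04), the cysteine-making enzyme CTH (-0.59, edgeR adjusted p = 9.61e-04) and the mitochondrial folate enzyme MTHFD2 (-0.41, edgeR adjusted p = 1.89e-04).

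Of 13 genes of tRNA charging and export 7 fell and 1 rose. WARS1, the tryptophan enzyme, had a log2 fold change of -0.42 (edgeR adjusted p = 1.97e-04) and the tRNA exporter XPOT had -0.35 (edgeR adjusted p = 0.00129). AARS1, the alanine enzyme, was the 1 that rose, from 14.4 ± 0.60 to 18.8 ± 1.77 FPKM (SD, n = 3 each; log2 fold change 0.40, edgeR adjusted p = 3.98e-04). Of 19 other targets 11 fell and 4 rose. GADD45A, a growth arrest gene, fell from 91.7 ± 1.72 to 59.0 ± 0.38 FPKM (SD, n = 3 each; -0.62, edgeR adjusted p = 1.22e-06), and EIF4EBP1, which blocks cap-dependent initiation when unphosphorylated, had -0.60 (edgeR adjusted p = 1.56e-05). ERO1A, the disulfide-forming oxidase of the endoplasmic reticulum, rose by 0.50 on the log2 scale (edgeR adjusted p = 5.74e-05). The other 3 that rose were the pro-apoptotic BBC3 (0.27) and BCL2L11 (0.21) and KLHL24 (0.23), with edgeR adjusted p values of 0.00934, 0.0372 and 0.0324. BCL2L11 lost its call in 9 of 14 other settings, DESeq2, no filter, both limma fits and each left-out library except siEIF1 replicate 3 (adjusted p 0.0544 to 0.131). KLHL24 lost it in 6, both limma fits and without NC replicate 1 or 2 or siEIF1 replicate 2 or 3 (adjusted p 0.0646 to 0.185). The 2 targets under the filter were the transporter SLC38A2, with 7.2 counts on average, and the hormone FGF21, with 0.2.

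**Figure D4:**
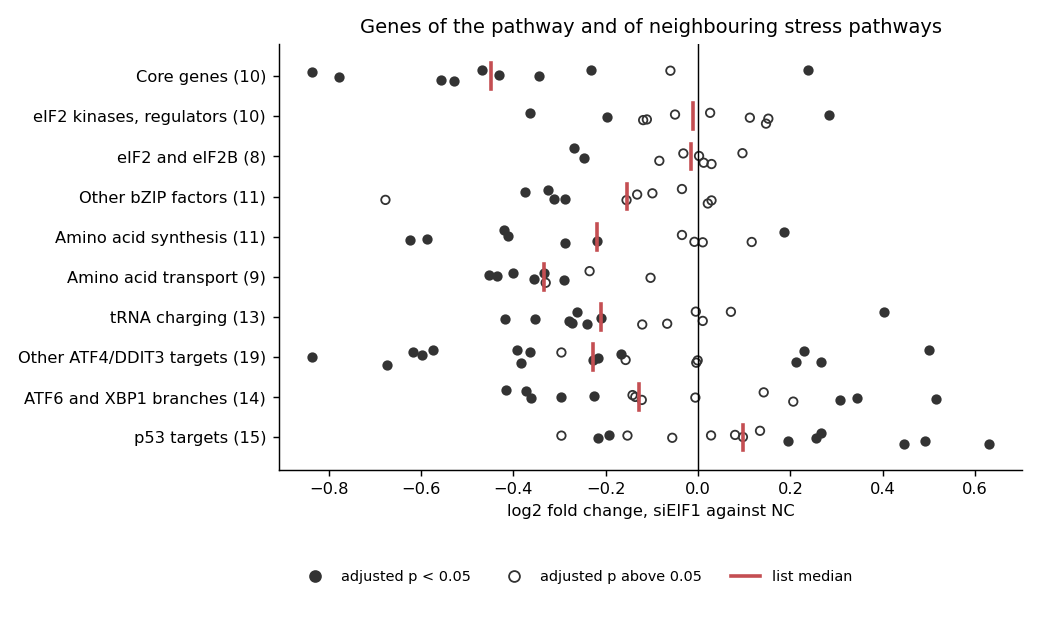
Log2 fold change, siEIF1 against NC (horizontal axis), of the tested genes of each list (rows, with the number tested in brackets), filled where the edgeR adjusted p was under 0.05 and with a red bar at the list median. The core genes have the lowest median, -0.45, the 4 target lists have medians between -0.33 and -0.21, and the eIF2 kinase and eIF2 subunit lists have medians of -0.01.

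EIF1 acts at the start codon, so the leaders of the core transcripts were described from the canonical transcripts of GENCODE release 44. An AUG upstream of the main start was present in 5 of the 10 core genes, 3 such AUGs in ATF4, 3 in DDIT3, 2 in TRIB3, 2 in PPP1R15A and 1 in SESN2, against 41.6% of 13083 tested coding genes with a leader. The group thus held both kinds of leader. A main start in a strong context, with a purine 3 bases before the AUG and a G right after it, was present in DDIT3 alone, 1 of 10 against 46.6% of the tested genes. ATF4 and DDIT3, each with 3 upstream AUGs, moved in opposite directions in transcript level. CHAC1, whose canonical transcript has no upstream AUG, fell nearly as far as DDIT3. Leaders of other transcripts, such as the CHAC1 transcript with an exon further upstream, were not read. A link between leaders and the changes was not tested. Counts per gene do not measure which AUG was used.

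The genes outside the group whose profile over the 6 libraries was nearest to that of ATF4, out of 13373 genes with at least 50 counts on average, were NR1H2, EFEMP2 and ECH1, at Euclidean distances of 0.0361, 0.0462 and 0.0469. NR1H2 encodes the liver X receptor beta, EFEMP2 the matrix protein fibulin-4 and ECH1 an enzyme of fatty acid oxidation. Their log2 fold changes were 0.24, 0.23 and 0.21. Nearest to DDIT3 were CALU, MCM3 and H2AZ1, at distances of 0.0477, 0.0980 and 0.112 and with log2 fold changes of -0.82, -0.80 and -0.76. CALU encodes a calcium-binding protein of the secretory pathway, MCM3 a subunit of the replicative helicase and H2AZ1 a histone variant. Many genes share such profiles when the main difference is that between the groups, and nearness was not tested.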

How the data were processed

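Both groups were sequenced as poly(A)-selected, strand-specific, paired-end libraries with reads of 150 nt. After trimming and alignment to GRCh38, the authors deposited counts of uniquely mapped reads per gene, without normalization, and FPKM values. HISAT2, DESeq2 and GRCh38 are named in the submitters' processing notes. The counting program, its strand setting and the annotation release are not given in the sources used here. All columns were matched to a library by its title, with 0 left unmatched.

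Counts were filtered with filterByExpr, scaled by TMM and fitted with edgeR 4.0.16 in R 4.3.3 (quasi-likelihood test, group as the only term, Benjamini-Hochberg adjustment over all 16749 tested genes). Standard errors were derived from the F statistic. Called means an adjusted p under 0.05. CPM uses the scaled library sizes without a prior count. A prior count of 2 entered only the correlations between libraries of the groups. Exact permutation tests were run with scipy 1.17.1 in Python 3.11.15. The alternatives were RLE and upper-quartile scaling, no filter, at least 10 counts in every library, DESeq2 1.42.0, limma 3.58.1 on log2(FPKM + 1) and log2(FPKM + 0.1), the replicate number as a block, and leaving out each library. The fits were tested on simulated data. Positions and windows are from GENCODE release 44 on GRCh38 and promoters from RefSeq.

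The core genes, the lists and the named genes rule were chosen with earlier results of these data known. Named are EIF1, the core genes, every eIF2 kinase, tested relatives, the 3 list members with the smallest p-values and the 3 nearest profiles to ATF4 and DDIT3. MALAT1, the marker genes and overlapping genes are named as checks. CDKN1A, MDM2 and PMAIP1 are named only as limits of the p53 list, outside the counts over named genes. JUNB, ALDH18A1, BBC3, BCL2L11, KLHL24, CRELD2, HYOU1, HSPA5, SEL1L, ERN1, PLK3 and TNFRSF10B were named after their values were seen.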

Additional observations from a re-analysis of the deposited data

How the results depend on the processing

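Under the 14 other settings the 10 core genes kept direction and side of the threshold in 137 of 140 fits. The other 3, all in limma on log2(FPKM + 0.1), were ATF4, ASNS and PPP1R15A, so that 0 core genes were called higher there. That fit also called fewer genes in all, 725 higher and 1010 lower against 1702 and 1744, and 2 target genes higher and 19 lower against 6 and 30. Leaving out 1 library gave 3 to 5 target genes higher and 25 to 31 lower, with 3 higher without NC replicate 2 or without siEIF1 replicate 2. It always gave 1 core gene higher, 8 lower and 0 past the fold limits. Relatives that did not pass the test changed sign: JDP2 had -0.003, -0.008 and -0.007 without NC replicate 2, siEIF1 replicate 2 and siEIF1 replicate 3, and TRIB2 had 0.125 and 0.038 without NC replicate 1 and siEIF1 replicate 1. Over all left-out libraries JDP2 ranged from -0.008 to 0.077 and TRIB2 from -0.136 to 0.125. Over all named genes 865 of 952 fits kept direction and call, 79 lost the call, 3 gained it and 5 were these changes of sign. BBC3, XBP1, TNFRSF10B, FOSL1 and EFEMP2 lost it only in limma on log2(FPKM + 0.1), with adjusted p values of 0.0626 to 0.0902. ECH1 lost it there and without NC replicate 2 or 3 or siEIF1 replicate 2 (0.062 to 0.0822). All 63 recomputed ratios to ATF4 kept their sign.

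Same-numbered libraries of the groups deviated together with correlations of 0.15, 0.09 and 0.13, which is too weak to call the numbers a pairing, although every library correlated best with its own number. With the replicate number as a block, 1 core gene was higher and 8 were lower, and 6 target genes were higher and 32 lower. In all 2149 genes were higher and 2128 lower there, more than the 1702 and 1744 of the main fit. With 3 libraries in a group an exact test cannot go below 0.1. The scaling assumes that most genes do not move, so a shift common to all genes cannot be seen.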

Other observations

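The stress pathways beside the integrated stress response moved in mixed directions. In the ATF6 and XBP1 branches of the unfolded protein response, 3 of 14 genes were higher and 5 lower (21.4% and 35.7%, beside 10.2% and 10.4% of all tested genes), with a median log2 fold change of -0.13. CALR, a calcium-binding chaperone of the endoplasmic reticulum, rose from 221.3 ± 0.90 to 311.4 ± 8.11 FPKM (SD, n = 3 each; log2 fold change 0.51, edgeR adjusted p = 1.18e-05). The disulfide isomerase PDIA4 had 0.34 (edgeR adjusted p = 4.95e-04), while XBP1, the factor activated by splicing of its mRNA, had -0.41 (edgeR adjusted p = 0.00215). The third gene that rose was CRELD2 (0.31), and the others that fell were the chaperones HYOU1 (-0.37) and HSPA5 (-0.30), the sensor ERN1 (-0.36) and SEL1L (-0.23), with edgeR adjusted p values from 0.00595 to 0.0199. The calls of these 4 that fell were lost in both limma fits and without NC replicate 1 or siEIF1 replicate 2, those of HYOU1 also in DESeq2 and of ERN1 also without NC replicate 3, with adjusted p values of 0.061 to 0.138. Without NC replicate 1, HSPA5 had -0.18. These are the branches that share the endoplasmic reticulum with the kinase EIF2AK3, whose own transcript had 0.28, a call that 6 of 14 other settings did not give.

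Among 15 targets of p53, 6 were higher and 2 lower, with a median of 0.10, beside 10.2% higher and 10.4% lower among all tested genes. The other 7 were not called, CDKN1A (-0.15, edgeR adjusted p = 0.0747) and MDM2 (0.08, edgeR adjusted p = 0.29) among them. This list is not complete. GADD45A (-0.62), PMAIP1 (-0.67) and SESN2, also known as targets of p53, fell but were counted elsewhere, so no common direction of p53 targets can be read from it. TP53I3, a quinone oxidoreductase, had a log2 fold change of 0.63 (edgeR adjusted p = 3.54e-04), the antiproliferative gene BTG2 had 0.49 (edgeR adjusted p = 1.14e-04) and the mitochondrial reductase FDXR had 0.45 (edgeR adjusted p = 0.0016). The 2 called lower were the death receptor TNFRSF10B (-0.22, edgeR adjusted p = 0.00958) and the kinase PLK3 (-0.19, edgeR adjusted p = 0.042). PLK3 did not pass in 7 of 14 other settings, DESeq2, both limma fits and without NC replicate 1 or 3 or siEIF1 replicate 1 or 2 (adjusted p 0.0506 to 0.162). BBC3, called higher, and TNFRSF10B were counted both here and among the targets of ATF4 or DDIT3, as was GDF15, which was not called. Of the sestrins, SESN2, a core gene here and left off this list, fell by 0.56 on the log2 scale. SESN1, counted among the targets of p53 and among the relatives of the core genes, had 0.13 (edgeR adjusted p = 0.259).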
